A study of Drosophila melanogaster with 2 samples.

Results

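Rab GTPases and Vps proteins direct traffic between the membrane compartments of the cell, and 55 of their genes were examined here among 13945 protein-coding genes of Drosophila melanogaster. The genes were taken by symbol alone: 28 are named Rab or RabX followed by a number, and 27 have a symbol that starts with Vps and a digit. Genes of the same machines with other symbols, such as dor, car and lt, are therefore described separately. The measurement was the binding of CG14441, a protein encoded on the X chromosome, fused to eGFP. Chromatin immunoprecipitation followed by sequencing (ChIP-seq) with an antibody against GFP was done on 2 biological replicates of whole embryos of a strain labelled CG14441-GFP, aged 0 to 24 h. Both replicates carry the fusion, all cell types and stages of that interval are mixed in each, and there is no second condition, so a gene's value is an average over the embryo. The flies are transgenic per the labels, and the promoter that drives the fusion is not stated there.

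The conservative peak set of the series held 5115 peaks on the 6 chromosome arms of the dm6 assembly, of which 2141 were promoter peaks, with the summit at most 500 bp from where transcription of a protein-coding gene starts (the TSS). A gene was counted as having a peak when a summit lay within 500 bp of any of its TSSs. Signal values come from the peak caller the authors used, their scale is not stated, and they are compared here only within a list. A pooled signal stands for the whole series, and the ranked series list also gives a signal for each of the 2 replicates in columns that carry no replicate number. These are named the first and second column below. Since no read counts are listed, the depth behind each value is unknown.

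Rab proteins are small GTPases that switch between a GDP-bound and a GTP-bound form. In the active form each marks a compartment and recruits motors, tethers and fusion factors to it. Vps proteins take their name from yeast mutants with defects in vacuolar protein sorting. Most are subunits of larger machines: the ESCRT complexes, which sort ubiquitinated cargo into multivesicular bodies, the HOPS and CORVET tethers of endosomes and lysosomes, retromer, which retrieves receptors from endosomes, and the GARP and EARP tethers of the Golgi and of recycling endosomes.

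The sequence under the summit is shown for 6 of the members, in the dm6 build (Release 6, RefSeq), with the member's own strand read 5′ to 3′. The first 3 are the peaks of highest signal, shown because the list is led by them, at Vps33B (chr3R:25473262-25473362, plus strand), Vps36 (chr3L:13513155-13513255, minus strand) and Rab5 (chr2L:2363731-2363831, minus strand). The other 3 carry the core of the DNA replication-related element (DRE), ATCGAT, which is the site of the transcription factor Dref and is set in capitals. They are at Rab30 (chr2L:7032623-7032723), Vps15 (chr3R:9245878-9245978) and Rab8 (chr3L:19871068-19871157), all on the minus strand. Each run covers 101 bases centred on the summit, except that of Rab8, which was shortened to 90 bases so that no more than 30 bases of 5′ UTR are shown.
Vps33B: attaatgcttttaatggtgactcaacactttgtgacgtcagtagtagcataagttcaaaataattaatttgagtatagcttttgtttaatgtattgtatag
Vps36: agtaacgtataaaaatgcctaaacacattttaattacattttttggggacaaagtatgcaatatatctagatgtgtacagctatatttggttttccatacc
Rab5: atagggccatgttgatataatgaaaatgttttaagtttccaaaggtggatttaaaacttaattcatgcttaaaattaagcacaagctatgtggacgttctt
Rab30: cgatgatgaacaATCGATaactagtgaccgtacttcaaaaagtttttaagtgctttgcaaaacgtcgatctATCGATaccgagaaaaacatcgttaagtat
Vps15: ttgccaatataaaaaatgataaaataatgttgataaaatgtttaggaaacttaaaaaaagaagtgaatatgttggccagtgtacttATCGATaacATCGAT
Rab8: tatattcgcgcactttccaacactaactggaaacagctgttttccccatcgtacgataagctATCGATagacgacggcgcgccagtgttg

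A peak was found at 13 of the 55 genes (23.6%, exact 95% interval 13.2 to 37.0). Among all protein-coding genes the share was 18.9%, which lies inside that interval. The Rab genes had 7 peaks among 28 genes (25%, 10.7 to 44.9) and the Vps genes 6 among 27 (22.2%, 8.62 to 42.3), so that the subgroups differed by 2.78 percentage points with intervals that overlap almost wholly. The intervals are Clopper-Pearson intervals, cover counting error alone and treat genes as independent. No test was run on the list or between its subgroups, since genes are not replicates.

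The peaks at these genes were of moderate strength. Their pooled signals ran from 71.7 to 372 with a median of 106, against a median of 130 and quartiles of 87.9 and 233 over all 2141 promoter peaks. Of the 13, 6 lay above that median and 4 below the lower quartile, and the strongest ranked 468th in the set. The Vps peaks had a median signal of 190 (75.5 to 372) and the Rab peaks 89.7 (71.7 to 229), with ranges that overlap.

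**Figure D1:**
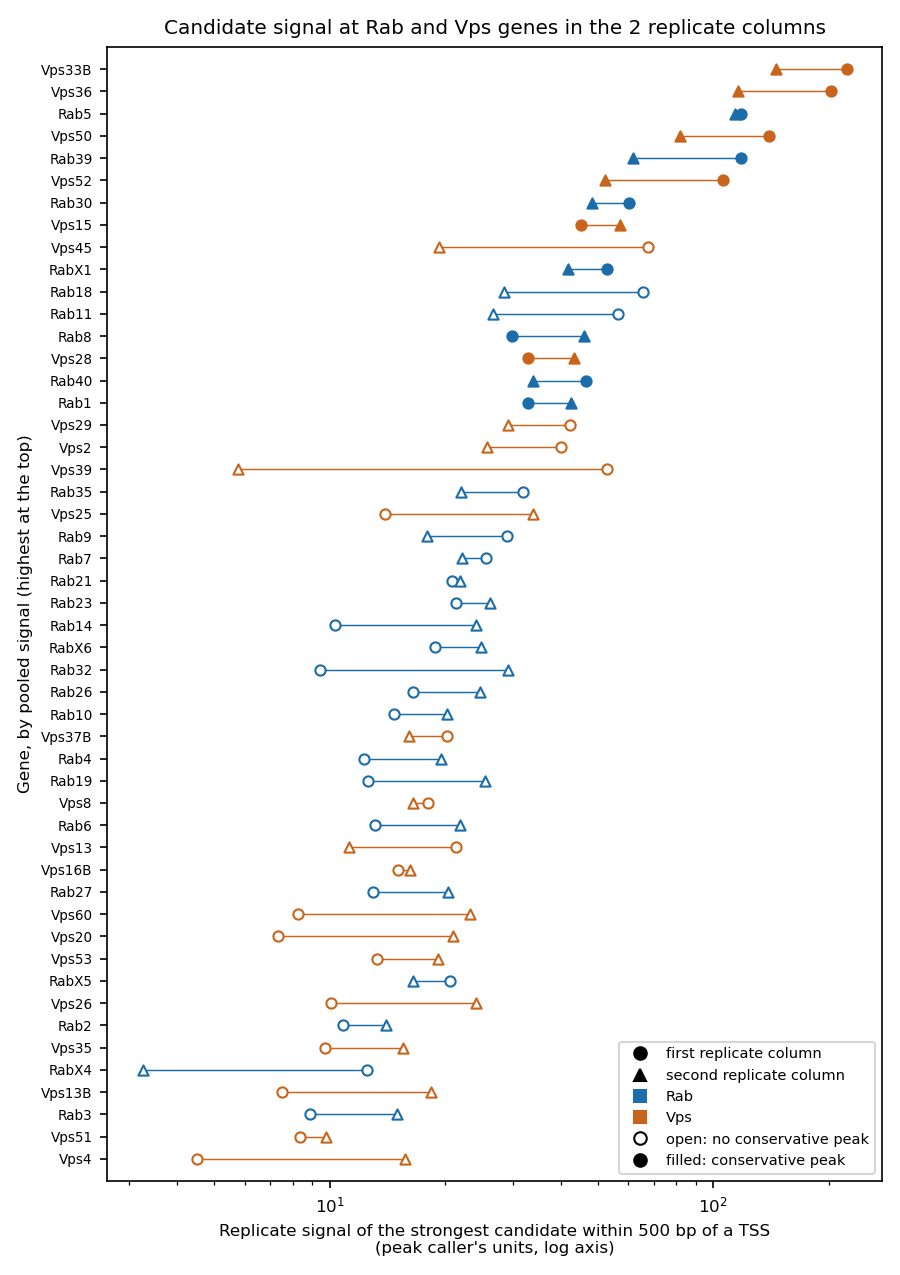
Signal of the strongest candidate within 500 bp of a TSS at each of the 50 genes with one, in the first (circles) and second (triangles) replicate column of the ranked series list, on a log axis in the peak caller's units. Rab genes are blue, Vps genes orange, and filled symbols mark the 13 genes with a conservative peak. The replicates lie close together at Rab5 and far apart at Vps45 and Vps39, which have no conservative peak.

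Among the tethers of endosomes and lysosomes, Vps33B alone of 6 genes had a peak, and it was the strongest of all 13. Vps33B encodes a Sec1/Munc18 family protein that works with Vps16B, and its gene is FBgn0039335. The peak (chr3R:25473290-25473492) had a signal of 223 in the first replicate column and 146 in the second, a mean of 185 ± 54.6 (SD, n = 2), with a pooled signal of 372. Its summit lay between protein-coding genes, 178 bp upstream of the Vps33B TSS and 254 bp upstream of the TSS of Fur1, a furin protease gene on the other strand. Its partner Vps16B, with Vps39 and Vps8, had only weaker candidates that missed the threshold, and Vps11 and Vps16A had none. The candidate of Vps39, a HOPS subunit singled out after its values were seen, was carried by the first column (52.9 against 5.77 in the second).

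Of the ESCRT genes, Vps36 and Vps28 had a peak and the other 7 did not. Vps36 (FBgn0086785), the ubiquitin-binding subunit of ESCRT-II, had the second-strongest peak (chr3L:13513132-13513282), with signals of 203 and 116 (mean 160 ± 61.4, SD, n = 2) and a pooled signal of 311. That summit was 93 bp upstream of Vps36 but only 49 bp upstream of Liprin-beta, a synaptic scaffold gene that runs the other way. Vps28 (FBgn0021814), a subunit of ESCRT-I, had a weak peak (chr2R:8080035-8080358) with signals of 32.8 and 43.3 (mean 38.1 ± 7.42, SD, n = 2), 156 bp upstream of its TSS. None of the 5 genes of ESCRT-III and of the ATPase Vps4 had a peak at a TSS. Their best candidate was at Vps2, which encodes a filament subunit (columns of 40.1 and 25.7). Vps4, Vps20, Vps60, Vps25 and Vps37B had weaker candidates, and Vps24 had none.

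The GARP and EARP tethers had 2 peaks among 4 genes. Vps50 (FBgn0034271), the subunit that distinguishes EARP from GARP, had signals of 140 and 82.1 (mean 111 ± 40.8, SD, n = 2; chr2R:17739637-17739960), with its summit 102 bp upstream of Vps50 and 114 bp upstream of PIG-A, a gene of GPI anchor synthesis. Vps52 (FBgn0031710), common to both tethers, had signals of 106 and 52.3 (mean 79.1 ± 37.8, SD, n = 2; chr2L:5523987-5524310). Its spread was the widest of the 13 relative to the mean (47.9%). The summit fell in the 5′ UTR of Elp4, an Elongator subunit gene, 10 bp downstream of the Elp4 TSS and 251 bp upstream of Vps52. Vps53 and Vps51, the remaining subunits in the list, had only weak candidates.

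The regulatory kinase subunit of the class III PI 3-kinase complex, Vps15 (FBgn0260935), had a peak 59 bp upstream (chr3R:9245766-9246089). No TSS of another protein-coding gene lay within 500 bp of the summit, and other kinds of gene were not examined. Its signals were 45.3 and 57.1 (mean 51.2 ± 8.35, SD, n = 2). None of the 3 retromer genes had a conservative peak: Vps29 came close to the threshold, and Vps26 and Vps35 had weaker candidates. The lipid transfer protein genes Vps13, Vps13B and Vps13D had no conservative peak either.

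Among the Rab genes, Rab5 (FBgn0014010), which controls fusion of early endosomes, had the strongest peak and the closest replicates of the 13. The signals were 118 and 114 (mean 116 ± 2.56, SD, n = 2) and the pooled signal 229 (chr2L:2363619-2363942). Rab5 has 6 annotated TSSs, and the summit lay in an intron, 277 bp upstream of the nearest of them. With 1 TSS per gene, Rab5 was the only member to lose its peak. It was the only one of the 6 genes for early and recycling endosomes with a conservative peak. The others, Rab4, Rab11, Rab14, Rab21 and Rab35, had candidates between 35.7 at Rab4 and 83.2 at Rab11.

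Of the other Rab peaks, 3 stood at genes placed with the early secretory pathway and the Golgi, out of 7 such genes. Rab39 (FBgn0029959) and Rab30 (FBgn0031882) are placed there from work in mammals. Rab39 had signals of 118 and 61.7 (mean 89.9 ± 39.8, SD, n = 2; chrX:7734409-7734732), and Rab30 had 60.3 and 48.4 (mean 54.3 ± 8.41, SD, n = 2; chr2L:7032511-7032834). The Rab39 summit was 352 bp upstream of Rab39, the most distant of the 13, and 80 bp downstream of the TSS of Pdp, in its 5′ UTR. The Rab30 summit was 67 bp upstream of Rab30 and 48 bp upstream of Caper, a splicing factor gene. Rab1 (FBgn0285937), which acts between the endoplasmic reticulum and the Golgi, had the weakest of the 13 peaks, with signals of 32.9 and 42.7 (mean 37.8 ± 6.90, SD, n = 2; chr3R:21268843-21269166), in its own 5′ UTR 55 bp downstream of the TSS. Rab2, Rab6, Rab18 and Rab19 had no conservative peak. The candidate at Rab18 was the strongest of these, with signals of 65.6 and 28.4.

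Of 5 Rab genes of exocytosis and secretory vesicles, Rab8 (FBgn0262518) had a peak, with signals of 29.9 and 46.0 (mean 38.0 ± 11.4, SD, n = 2; chr3L:19870950-19871273). Its summit lay 34 bp upstream of Rab8 and 27 bp upstream of Usp32, a deubiquitinase gene. Rab10, Rab26, Rab27 and the synaptic vesicle Rab gene Rab3 had candidates between 18.6 and 37.6, below the threshold. In the remaining group, RabX1 (FBgn0015372) had signals of 52.7 and 41.9 (mean 47.3 ± 7.63, SD, n = 2; chr2R:23523602-23523925) and Rab40 (FBgn0030391) had 46.6 and 33.9 (mean 40.3 ± 8.97, SD, n = 2; chrX:12462835-12463158). The RabX1 summit was 151 bp upstream of RabX1 and 92 bp upstream of mi, and the Rab40 summit was in the 5′ UTR of Rab40, 115 bp downstream of its TSS. Rab23, RabX4, RabX5 and RabX6 had candidates between 20.2 and 39.1, and RabX2 had none. None of the 3 genes for late endosomes and lysosome-related organelles, Rab7, Rab9 and Rab32, had a conservative peak, and their candidates lay between 37.9 and 47.6.

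**Figure D2:**
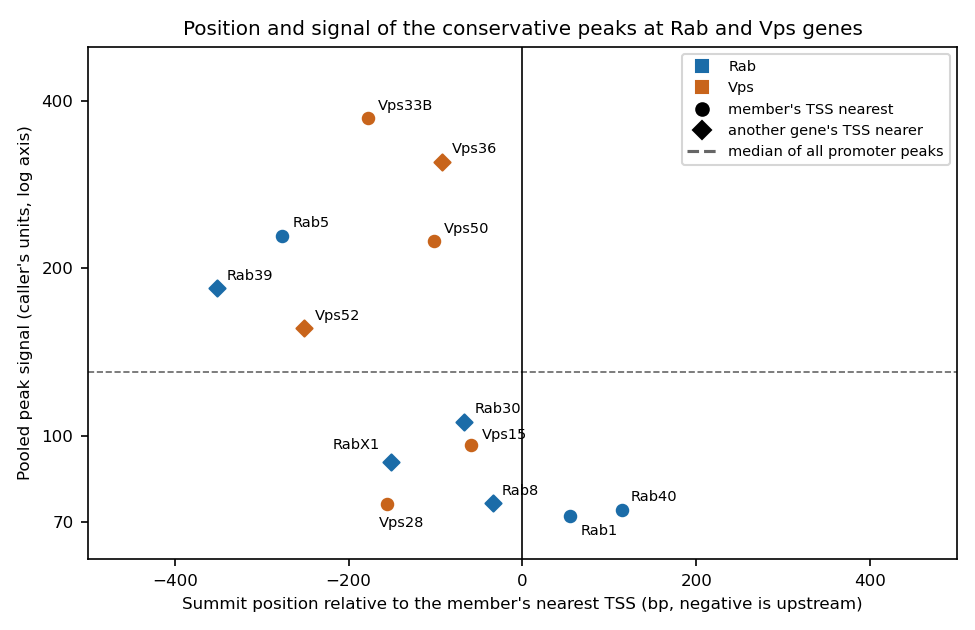
Pooled signal (log axis, peak caller's units) of the 13 conservative peaks against the position of the summit relative to the member's nearest TSS in bp, with negative values upstream. Diamonds mark the 6 peaks that lie nearer to another gene's TSS, and the dashed line is the median of 130 over all promoter peaks. The 6 peaks above that line are all upstream, and Rab1 and Rab40 are the 2 downstream of the TSS.

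The summits lay mostly upstream of the gene's nearest TSS. They were upstream at 11 of the 13, at a median position of −102 bp and between −352 and 115 bp. The Rab5 summit, counted as upstream here, lay inside the gene. All 6 Vps summits were upstream (median −129 bp), and so were 5 of 7 Rab summits (median −67 bp). Over all 2954 pairs of a promoter peak and a gene, 84.0% were upstream at a median of −127 bp, which is close to the values of these genes.

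Many of these promoters are shared. At 8 of the 13 peaks the window of 500 bp also held a TSS of a different gene, and in every one of the 8 it lay on the opposite strand. A second gene, on either strand, was found in 53.3% of all pairs. Its strand was not counted over all pairs, so the strand at these 8 has no background beside it. At 6 peaks the neighbour's TSS was the nearer one: Liprin-beta for Vps36, Pdp for Rab39, Elp4 for Vps52, Caper for Rab30, mi for RabX1 and Usp32 for Rab8. Such a neighbour was nearer in 27.5% of all pairs. A peak of this kind cannot be assigned to one of the genes from its position.

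Shared promoters were also common in the list as a whole. An opposite-strand TSS of another protein-coding gene lay within 500 bp upstream of 30 of the 55 genes, against 27.4% of all genes. Of these 30 genes, 10 had a peak (33.3%), and of the other 25, 3 did (12%). Over all genes the shares were 36.1% with such a neighbour and 12.4% without one, so within each class the members lay close to the background. By arm, a peak was found at 3 of 8 genes on 2L, 3 of 12 on 2R, 2 of 10 on 3L, 3 of 15 on 3R and 2 of 10 on the X. The share of all genes was not computed by arm, so these counts cannot show whether the arms differ.

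The SD of the replicate columns was 22.3% of the mean in the median of the 13 peaks, with a range of 2.21% to 47.9%, against 15.8% over all promoter peaks. It was 33.2% over the Vps peaks and 18.2% over the Rab peaks. The first column was the higher one at 9 of the 13, as it was for 65.2% of promoter peaks, and exceeded the second by a median of 1.26-fold against 1.12-fold. Vps15, Rab8, Vps28 and Rab1 were the 4 with a higher second column. These are spreads of 2 values each, and no test was run.

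The thresholded set of each replicate gave a different number of genes. In that of replicate 1, 14 genes had a peak, 7 Rab and 7 Vps (all genes, 15.9%). In that of replicate 2, 8 did, 2 Rab and 6 Vps (all genes, 15.5%). Rab5, Rab30, Vps15, Vps33B, Vps36, Vps50 and Vps52 had a peak in both, which makes 7 of the 13. Rab1 and Rab8 had one in neither set alone. The relaxed series set held all 13 and added Rab11, Rab18 and Vps45, for 16 genes in total (all genes, 20.9%). In the set of replicate 2 the Rab share was 7.14% and the Vps share 22.2%, and in that of replicate 1 they were 25% and 25.9%. The Rab share was below the Vps share in 6 of the 8 alternatives tried, so the order of the subgroups was not stable. The share of the whole list was below that of all genes in the set of replicate 2 (14.5% against 15.5%), among the 2557 strongest peaks (10.9% against 11.9%) and when a peak counted only for the gene with the nearest TSS (12.7% against 13.9%).

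**Figure D3:**
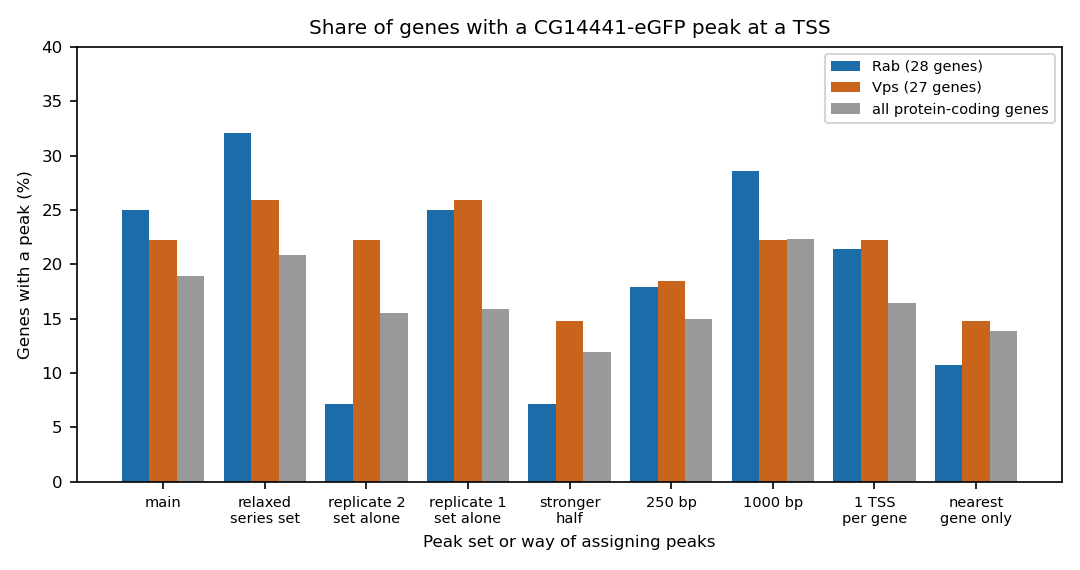
Share of the 28 Rab genes (blue), the 27 Vps genes (orange) and all protein-coding genes (grey) with a peak at a TSS, in percent, for the main peak set and 8 other ways of choosing or assigning peaks. The Rab bar is above the Vps bar in the main set (25% and 22.2%) and below it in 6 of the 8 others, by the most in the set of replicate 2 alone (7.14% and 22.2%).

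Weaker candidates were present at nearly all the other genes. The ranked series list had a candidate of any strength within 500 bp of a TSS at 50 of the 55 genes, 27 Rab and 23 Vps, against 77.7% of all protein-coding genes. The 5 without one were RabX2, Vps11, Vps13D, Vps16A and Vps24. Over the 37 genes with a candidate but no conservative peak the median signal was 35.7, close to the 33.4 of other genes in that position. The first replicate column was the higher one at 14 of these 37 and the second at 23. Among other genes without a peak the first was higher in 47.4%.

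Signal and reproducibility ranked these candidates differently. The strongest was at Vps45, which encodes the Sec1/Munc18 protein of endosomal fusion: its pooled signal of 90.4 was above those of 5 of the 13 conservative peaks, but the columns stood at 67.5 and 19.3 (mean 43.4 ± 34.0, SD, n = 2) and the −log10 of the global irreproducible discovery rate (IDR) was 0.19, where the threshold is 2. Rab18 followed with 88.0 (mean 47 ± 26.3, SD, n = 2; −log10 global IDR 1.76) and Rab11, the recycling endosome Rab, with 83.2 (mean 41.6 ± 21.1, SD, n = 2; 1.51). Vps29, a retromer subunit, had a pooled signal of 69.0 with columns of 42.4 and 29.2 and came nearest to the threshold at 1.94. Even so, it had a peak in the set of replicate 1 but not in the relaxed series set, which held Vps45, Rab18 and Rab11. The relaxed set thus did not follow the order of this IDR. Vps2 was the fifth at 68.5. On the other side of the threshold, Rab8 was the conservative peak nearest to it at 2.08, with columns of 29.9 and 46.0.

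Some genes carried a summit in the gene body, further than 500 bp from any of their own TSSs. The share of all genes with such a summit was not computed, so the peaks are listed without a background. Rab11 had 2 such intronic peaks, of which the stronger (chr3R:21113126-21113271) had a pooled signal of 265 and columns of 132 and 138, 1802 bp downstream of the TSS. The other had a signal of 115 at 1262 bp. An intronic peak of Rab14 lay just outside the promoter window, 583 bp downstream of a TSS (chr2L:14355566-14355889), with columns of 71.6 and 98.1 and a pooled signal of 165. Weaker intronic peaks stood in Rab32 (73.8, 1622 bp) and in RabX1 (70.5, 1145 bp). A peak of 152 in the 3′ UTR of Vps4 lay 393 bp upstream of the TSS of CG6847.

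The summits of the 13 peaks were rich in A and T. In the 101 bases around the summit the median share of A and T was 69.3%, from 49.5% at Rab8 to 80.2% at Rab39, against 53.9% in the flanks 400 to 450 bp away. It was higher at the summit than in the flanks of the same peak at 11 of the 13, Rab8 and Rab40 being the exceptions, and in 72.9% of the other promoter peaks, whose medians were 65.3% and 54.9%. The windows 150 to 50 bp upstream of all other genes had a median of 63.4%, so promoters in general were nearly as rich in A and T. The 7-base words in largest excess at summits over flanks were taken from the 5102 peaks other than these 13, which still include the peaks inside Rab and Vps genes further from a TSS. They were TTTAAAA (at 671 summits and in 261 flanks), TAAAATA (607 and 228), AAAATAT (744 and 371), TTAAAAA (691 and 321) and ATTTTAA (617 and 271), on either strand, and they overlap one another. At least 1 of them was found at 7 of the 13 summits, in the flanks of 1, at 39.6% of other promoter summits and in 32.9% of equally long windows 150 to 50 bp upstream of all other genes.

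**Figure D4:**
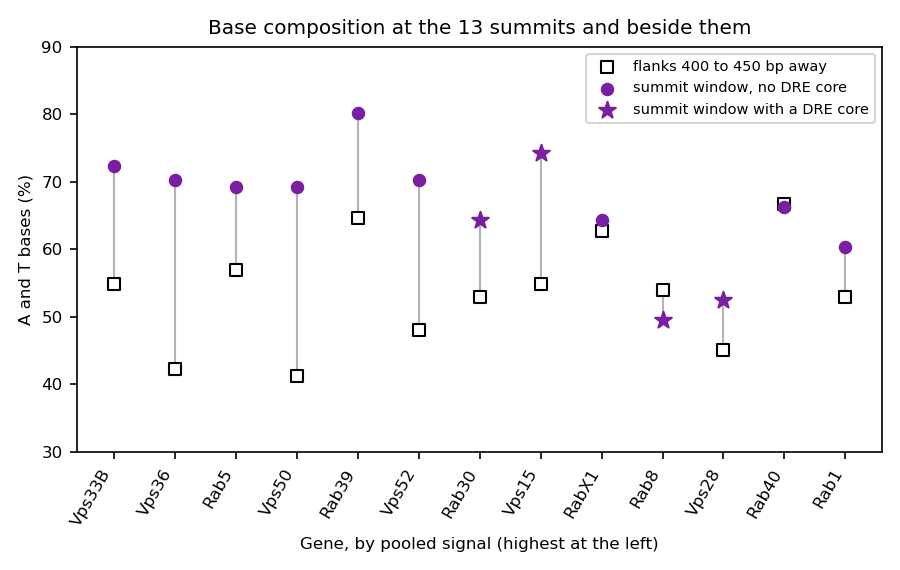
Share of A and T bases in percent in the 101-base window at each of the 13 summits (purple) and in the flanks 400 to 450 bp away (open squares), with the genes in order of pooled signal. Stars mark the 4 summits with a DRE core. Summits lie above their flanks at 11 of the 13 genes, and the 6 strongest have no DRE core.

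The DRE core, ATCGAT, was present within 50 bp of the summit at 4 of the 13 peaks (30.8%), at Rab30, Vps15, Rab8 and Vps28. It was found at 7.80% of the 2128 other promoter summits and in 7.84% of the windows upstream of the other 13890 genes. The 4 peaks with it were weak, with pooled signals of 75.5 to 106, and the 6 strongest peaks lacked it. Among the other promoter peaks those with the core had a median signal of 105 and those without it 134. With a window of 100 bp, chosen after the data were seen, the count stayed at 4, while the share of other promoter summits rose to 14.6%. In the window 150 to 50 bp upstream of the TSS the core was present at 9 of the 55 genes (16.4%). Of these 9, 7 had no peak, which is near the share of the whole list, where 42 of 55 had none. This window missed the cores at the peaks of Vps15 (11.5 and 20.5 bp upstream of the TSS) and Rab8 (14.5 bp). The count therefore does not cover all 4 peaks with a core and cannot tell whether the core goes with a peak. Among other genes the core was upstream at 7.71% of those without a peak and 8.38% of those with one.

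The other motifs searched, on both strands, were found at few of these summits. CGATA, the core bound by BEAF-32, which overlaps most copies of the DRE, was present at the same 4 genes (other promoter summits, 20.3%; all promoters, 20.2%). TATAAA, the TATA box, was present at Vps15, Vps36 and Vps50 (20% and 17.8%), and the E-box CAGCTG at Rab8 (4.75% and 5.13%). There was no match at the 13 summits to GAGAG, the motif of GAGA factor (8.18% and 13.8%), to GGTCACAC, the core of Motif 1 (1.74% and 1.32%), to CACGTG (1.17% and 0.994%) or to TCACGTGA, a form of the E-box bound by the lysosomal gene regulator Mitf (0.0940% and 0.0576%). With 13 summits, the absence of the rarer of these motifs says little.

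Genes of the same pathways with other symbols had a peak at 25 of 73, or 34.2%, against 18.9% of all genes, with peaks nearer to another gene included in both. Among Rab regulators 6 of 20 did, namely Mon1, part of the exchange factor of Rab7 (signal 651, replicate mean 323 ± 22.5, SD, n = 2), Rbsn-5, an effector of Rab5 (539), Rab3GAP1 (231), RabGGTb, a subunit of the enzyme that prenylates Rabs (207) and 2 others. Of the ESCRT genes without a Vps symbol, CHMP2B (2154, replicate mean 1078 ± 228, SD, n = 2), mop (132) and Stam (87.4) were 3 of 10. The CHMP2B summit was nearer to the TSS of Tcs5. In the HOPS and PI 3-kinase list 2 of 7 had a peak, car (145), which encodes the HOPS counterpart of Vps33B, and Uvrag (65.7), while dor and lt had none. In the list of scat, the fly Vps54, and the sorting nexins it was 3 of 8, led by scat (398), Snx21 (246) and Snx27 (77.9). As at CHMP2B, another gene's TSS was the nearer one at Rbsn-5, Rab3GAP1, Stam, car, Uvrag and Snx21.

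The exocyst, which tethers secretory vesicles at the plasma membrane, had 4 of 8 genes with a peak: Sec6 (413), Sec5 (124), Sec15 (122) and Sec3 (106). Of 4 AP-3 adaptor genes, cm (244) and or (192) had one. The COG and TRAPP tethers had 5 of 16, with fws (1428, nearer to Lamtor3), brun (173), Bet3 (124) and Cog3 (124) the strongest. Cog3 and Sec5 share 1 peak, which is nearer to Sec5. The summits at Sec15, brun, Bet3 and the AP-3 genes cm and or were also nearer to another gene. In 14 of the 25 the summit was nearer to another gene than to the one listed, as it was at 6 of the 13 Rab and Vps peaks. The share over all pairs of a promoter peak and a gene was 27.5%. Assignment is therefore uncertain for these counts as well as for those of the Rab and Vps genes. When a peak counted only for the gene with the nearest TSS, the share of all genes was 13.9%. The pathway lists were not recounted that way, and their share would fall too. The 34.2% therefore cannot be read as an excess that belongs to the listed genes.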

How the data were processed

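The lists came from 2 biological replicates, which form 1 group; how separate the embryo collections were is not given. Per the labels, chromatin was sonicated to fragments of 200 to 800 bp and placed on dm6. Per the README files among the deposited data, peaks were derived from the alignments and a control alignment and thresholded by IDR; which aligner and peak caller were used is not given in the sources used here. The deposited lists hold a signal per peak (scale not stated), a summit position and, in the ranked list, the −log10 global IDR as the authors deposited it, capped at 5. They hold no counts, so depth and its precision are unknown. Alignments, the control and signal tracks were not analysed here.

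Genes and TSSs were those of Ensembl release 115 (BDGP 6.54), and bases were read from the RefSeq dm6 assembly. Calculations were done in Python 3.11.15 with pandas 2.3.3, numpy 2.4.6 and scipy 1.17.1, figures were drawn with matplotlib 3.10.9, and the scripts were tested on simulated data. No p-value was computed. Every gene with a conservative peak was named with values, as were the 5 others with the strongest candidates, up to 4 per pathway list (74 of 79 symbols matched, 73 distinct genes) and the 5 most enriched words. The members, lists and motifs were chosen with earlier results of these data known. Other peak sets, windows and assignments were tried as alternatives.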

Additional observations from a re-analysis of the deposited data

How the results depend on the processing

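The main values were 13 genes with a peak, 7 Rab and 6 Vps, a difference of 2.78 percentage points, a median signal of 106 and 84.6% of summits upstream. With 1 replicate left out, the genes numbered 8 to 14, Rab genes 2 to 7 and Vps genes 6 to 7, the Rab minus Vps difference was −15.08 to −0.93 points, the median signal 66.5 to 69.6 on each list's own scale, and 92.9% to 100% of summits were upstream. The 2557 strongest peaks left 6 genes, 2 of them Rab, a difference of −7.67 points, a median of 226 and 100% upstream. That is 10.9% of the list against 11.9% of all genes. Counting a peak only for the gene with the nearest TSS left 7 genes, 3 of them Rab, with a median of 96.1 and a difference of −4.10, or 12.7% of the list against 13.9% of all genes. In the main set the shares were 23.6% and 18.9%, so in both settings the list was no longer above the background. The median signal was 93.2 in the relaxed set, 92.9 with a window of 250 bp and 131 with 1000 bp. The Rab share was also below the Vps share with 250 bp (−0.66) and with 1 TSS per gene (−0.79). The cause was not tested. No paired analysis was possible because all samples belong to 1 group. Depth is unknown, and 2 replicates limit each SD.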
